A study of Mus musculus with 12 samples.

Results

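The genes described here encode the proteins of the mitochondrial ribosome, and the group was chosen with earlier results of these data known. Its members are, by annotation, the protein-coding genes whose symbol begins with Mrpl or Mrps followed by a digit. They number 77 of the 34513 genes in the count table, 48 with an Mrpl symbol and 29 with an Mrps symbol. RNA-seq of 3 murine lines gave the values. MelanA is a nontumorigenic melanocyte line, and B16F0 and B16F10 are melanoma lines. Each line was sequenced untreated and after SX-682, an antagonist of the chemokine receptors CXCR1 and CXCR2, giving 6 groups of 2 libraries and 12 libraries in all. The labels name no genetic alteration, and the dose and duration of SX-682 in these cultures were not given in the sources used here. Each group stands for a single cultured line, and the labels do not say whether the libraries of a group came from separate cultures, so that p-values measure only the spread between these libraries, which may be technical. These are bulk samples, in which fewer cells of a type and less RNA per cell cannot be told apart.

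The mitochondrial ribosome translates the messengers of mitochondrial DNA, all of which encode subunits of oxidative phosphorylation. Its ribosomal RNAs are transcribed inside the organelle, whereas every one of its proteins is encoded in the nucleus, made in the cytosol and imported. Some of these proteins descend from bacterial ribosomal proteins and the others were added during the evolution of mitochondria. In these data 50 members belong to the large subunit, 30 of bacterial type and 20 specific to mitochondria, and 26 to the small subunit, 16 of bacterial type and 10 specific to mitochondria. Mrps30 and Mrps18a carry small-subunit names but are proteins of the large subunit, and are counted there. Mrps36, the remaining member, is named as a ribosomal protein but is a component of the alpha-ketoglutarate dehydrogenase complex.

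Promoters of genes for mitochondrial proteins are known for binding sites of NRF1, of the ETS factor GABP and of YY1. RefSeq windows of 300 bases, 250 before and 50 after an annotated start on GRCm38.p6, were at hand for 68 of the 77 members and for 17491 protein-coding genes in all. The ETS motif CCGGAAGT, searched on both strands, was in the window of 12 members (17.6%) and of 5.69% of all these genes. The NRF1 motif GCGCATGCG was in 7 members (10.3%) and 2.61% of all genes. The YY1 motif AAGATGGCG was in 8 members (11.8%) and 2.14% of all genes. At least 1 of these 3 motifs was found in 26 members (38.2%), compared with 9.85% of all genes. The shares of all genes cover genes not expressed in these lines, whereas every member was expressed, and no comparison with expressed genes alone was made. A CRE, TGACGTCA, was in 2 members (2.94%) and 2.54% of all genes, and an E-box, CACGTG, in 5 members (7.35%) and 8.91% of all genes. The C/EBP-ATF motif TGATGNAA was in no member window and in 4.13% of all genes. A match is a run of letters and no evidence of binding, and overlapping matches of a motif were counted once per gene.

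The stretches below, with an ETS, NRF1 or YY1 motif, are shown because their genes moved the same way with SX-682 in all 3 lines, the first 4 upward and the others downward. Mrpl32 has more than a single NRF1 match and is shown at the one nearest its start. Each is read 5′ to 3′ on the strand of the gene, with the motif or its reverse complement in capitals.
Mrpl17, NRF1, chr7:105811080-105811109 (-): gccgagttactGCGCATGCGtcctctgaga
Mrpl32, NRF1, chr13:14613042-14613071 (-): ggcggacttaaCGCATGCGCtcagcccgcg
Mrps18b, NRF1, chr17:35916646-35916675 (-): aaacggcccgaCGCATGCGCactgggagca
Mrps18a, YY1, chr17:46111004-46111033 (+): aggtgcgttccAAGATGGCGgccctcaggg
Mrpl18, ETS, chr17:12916312-12916341 (-): actgaaaacgCCGGAAGTagggggctgcgg
Mrpl51, ETS, chr6:125192099-125192128 (+): caggggctaaaCCGGAAGTatttgactgga
Mrpl3, ETS, chr9:105053238-105053267 (+): tgagaaacggaCCGGAAGTggcccggctgt
Mrps26, ETS, chr2:130563731-130563760 (+): gctccgcggccACTTCCGGgccgggcgcag
Mrpl36, YY1, chr13:73330967-73330996 (+): acgtgaccttaCGCCATCTTtcttcctggc
Mrpl37, YY1, chr4:107066822-107066851 (-): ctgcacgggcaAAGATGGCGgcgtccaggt
Mrpl42, YY1, chr10:95501904-95501933 (-): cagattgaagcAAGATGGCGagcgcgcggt
Mrps11, YY1, chr7:78783012-78783041 (+): cctacgggcgcCGCCATCTTtctgtcttcc
Among the 10 members with a window that rose in all 3 lines, 3 had the NRF1 motif, 1 the YY1 motif and none the ETS motif. Among the 18 that fell in all 3 lines, 4 had the ETS motif, 4 the YY1 motif and none the NRF1 motif. These counts are small, and no test of them was made.

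Library totals were between 48876982 and 85322092 counts, and each member had between 630 and 12566 counts in each library, so all 77 passed the expression filter that kept 18338 genes. Levels are given as CPM, the counts scaled by TMM to a common library size. The melanocyte label of MelanA was checked by its markers. In untreated MelanA libraries Sox10 was at a mean of 670 CPM and Dct at 355 CPM, whereas Pmel was at 8.11 CPM, Tyr at 0.826 CPM and Gpr143 at 0.0113 CPM, which is at or under the floor of 3 counts in all 4 MelanA libraries. The 9 melanocyte markers summed to 1351 to 1382 CPM in MelanA libraries and to 15292 to 25231 CPM in B16 libraries. All 9 were lower with SX-682 in B16F0 and in B16F10. Markers of keratinocytes summed to at most 3.39 CPM. The fibroblast markers summed to 60.6 and 60.9 CPM in MelanA controls. They summed to 16.6 and 15.9 CPM in B16F0 controls and to 8.42 and 9.72 CPM in B16F10 controls. Col1a1 was at a mean of 46.4 CPM in untreated MelanA, and Col1a1, Lum and Dcn were higher there than in untreated B16. Col1a2 was lower in untreated MelanA (0.764 CPM) than in untreated B16F0 (2.36 CPM) and B16F10 (5.14 CPM). Pdgfra was highest in untreated B16F0 (8.11 CPM) and lowest in untreated B16F10 (1.33 CPM). Of the immune markers, Cd3e was at or under the floor in all 12 libraries and Ptprc in 6. Cd68 was at a mean of 16.02 CPM in untreated MelanA and 44.6 CPM with SX-682, at 10.98 and 14.8 CPM in B16F0, and at 26.0 and 24.5 CPM in B16F10. Lyz2 was at 6.996 and 4.55 CPM in MelanA and at or below 0.426 CPM in the B16 groups. The part of these markers in the results below was not tested.

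Levels differed between members when compared per length. Over all libraries their median was 16.7 CPM per kilobase of exon, with a range of 4.19 to 79.0, an 18.8-fold span, and the median of the 14332 protein-coding genes tested was 5.15. The large-subunit members had a median of 17.5 and the small-subunit members of 12.6 CPM per kilobase. Mrpl12, whose protein forms the flexible stalk of the large subunit, was the highest at 79.0 CPM per kilobase, followed by Mrpl2, a protein next to the peptidyl transferase centre, at 59.4 and Mrps21 at 54.3. The lowest were Mrps30 at 4.19, Mrpl48 at 4.22 and Mrpl33 at 4.66. Exonic length was taken over all annotated transcripts of a gene, and a gene with long rare transcripts is thereby placed lower. For all 76 pairs of neighbours in this order the libraries overlapped, so the order is not resolved between adjacent members.

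Whether SX-682 moved the mitochondrial ribosome as a unit was examined first. In none of the 3 lines did the members move as a block, since many rose and many fell in the same cells. In MelanA 24 members rose (31.2%) and 29 fell (37.7%), against 23.4% of all tested genes that rose and 24.7% that fell, and the members' median log2 fold change was -0.01. In B16F0 17 rose (22.1%) and 31 fell (40.3%), against 25.1% and 25% of all genes, with a median of -0.05. In B16F10 24 rose (31.2%) and 26 fell (33.8%), against 25.5% and 25.3% of all genes, with a median of 0.03. In either direction 68.8%, 62.3% and 64.9% of the members were called in MelanA, B16F0 and B16F10, against 48.2%, 50.1% and 50.8% of all genes, which include many genes of lower counts. Of the 12326 genes with at least 10 counts in every library, fitted on their own, 8152, 8410 and 8738 were called. That share was slightly below that of the members in MelanA and above it in both B16 lines. The median of all genes was 0 in each line. Most changes were small: the SD of the members' log2 fold changes was 0.27 in MelanA, 0.28 in B16F0 and 0.35 in B16F10, and Mrpl18 alone changed by at least 1 on the log2 scale in each line. Within the large subunit 15 rose and 19 fell in MelanA, 11 and 20 in B16F0, and 16 and 17 in B16F10. Within the small subunit 9 rose and 9 fell in MelanA, 6 and 10 in B16F0, and 8 and 8 in B16F10.

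**Figure D1:**
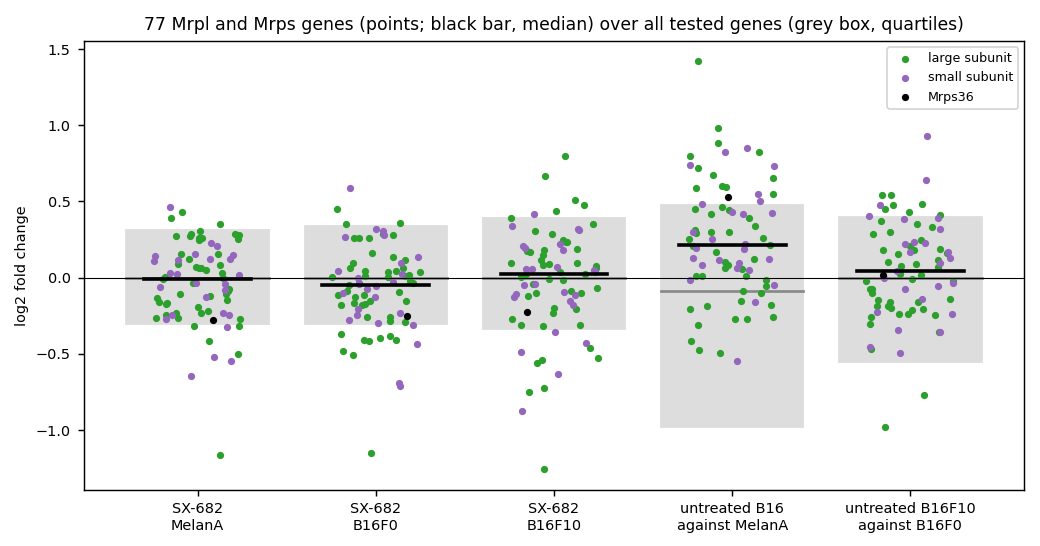
Log2 fold change (y axis) of each of the 77 members (points, coloured by subunit) in the 3 SX-682 comparisons and the 2 comparisons of untreated lines, with the members' median as a black bar and the quartiles and median of all tested genes in grey. With SX-682 the members spread on both sides of 0 and Mrpl18 lies lowest, below -1 in each line, whereas in untreated B16 against MelanA the members' median lies at 0.22 and that of all genes at -0.09.

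The summed level of the 77 members changed little. In MelanA it was 3066 and 3111 CPM in the controls and 3059 and 3045 CPM with SX-682. In B16F0 it was 3652 and 3631 CPM in the controls and 3432 and 3529 CPM with SX-682. In B16F10 it was 3760 and 3753 CPM in the controls and 3621 and 3686 CPM with SX-682. On this scale the SX-682 libraries were below both controls in each line, by a narrow gap in MelanA. As an unscaled share of all counts the MelanA libraries with SX-682 lay between their controls, whereas in both B16 lines they stayed below, and the controls of both B16 lines were above those of MelanA.

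The members that did move together across the lines formed opposed groups. In all 3 lines 12 members rose (15.6%, against 11.3% of all tested genes) and 18 fell (23.4%, against 11.7%), while 3 were called in opposite directions in at least 2 lines (9.59% of all genes) and 7 were called in none (29.4% of all genes). All tested genes include many of lower counts, which were called less often, so these shares are not like for like. Each line has its own controls, so these are separate comparisons. Those that rose were Mrpl15, Mrpl17, Mrpl23, Mrpl24, Mrpl32, Mrpl38, Mrps18a and Mrps30 of the large subunit and Mrps10, Mrps16, Mrps18b and Mrps31 of the small subunit. Those that fell were Mrpl3, Mrpl11, Mrpl18, Mrpl20, Mrpl28, Mrpl34, Mrpl36, Mrpl37, Mrpl42, Mrpl49, Mrpl50 and Mrpl51 of the large subunit, Mrps11, Mrps12, Mrps21, Mrps25 and Mrps26 of the small subunit, and Mrps36. Both subunits were therefore represented in both directions. The 7 members not called in any line were Mrpl9, Mrpl14, Mrpl21, Mrpl27, Mrpl35, Mrpl39 and Mrps23. The members that rose had a median exonic length of 4286.5 bases and a median level of 8.90 CPM per kilobase, and those that fell had 1995 bases and 19.2 CPM per kilobase, compared with 2533 bases and 16.7 CPM per kilobase for all members. Without division by length the median levels were alike, at 38.6 CPM for those that rose, 39.1 CPM for those that fell and 39.3 CPM for all members. The difference per kilobase is therefore not separate from that in length. With an added correction for GC content and length, chosen after seeing the data, 12 rose and 20 fell in all 3 lines, of which 11 and 16 were among those named here.

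**Figure D2:**
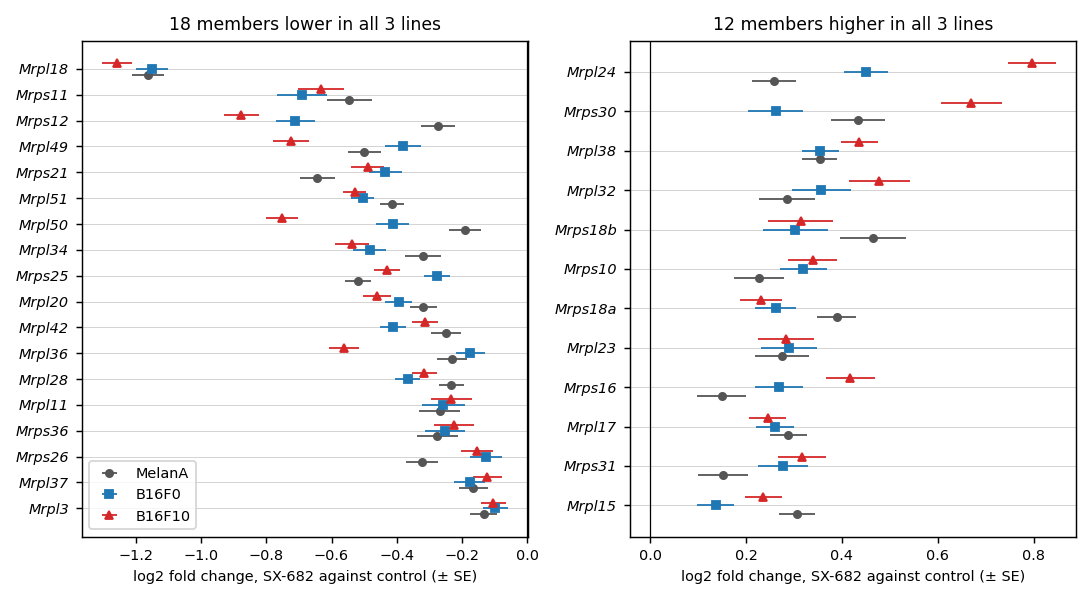
Log2 fold change with SX-682 against control (x axis, points ± SE) in MelanA, B16F0 and B16F10 for the 18 members lower in all 3 lines (left) and the 12 higher in all 3 lines (right). Mrpl18 stands apart at -1.16, -1.15 and -1.26, and the changes of the members that rose lie between 0.14 (Mrpl15 in B16F0) and 0.80 (Mrpl24 in B16F10).

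Mrpl18, the counterpart of the bacterial L18 protein of the large subunit, fell the most in every line. In MelanA it was at 35.8 and 37.6 CPM in the controls and at 16.3 and 16.5 CPM with SX-682. In B16F0 it was at 50.8 and 53.3 CPM in the controls and at 23.1 and 23.8 CPM with SX-682. In B16F10 it was at 69.8 and 70.5 CPM in the controls and at 29.1 and 29.6 CPM with SX-682. No SX-682 library reached a control of its line, and the level with SX-682 was 0.446, 0.451 and 0.418 of the control in MelanA, B16F0 and B16F10. The log2 fold changes were -1.16 ± 0.05 (SE, adjusted p = 4.8e-18), -1.15 ± 0.05 (3.05e-18) and -1.26 ± 0.05 (9.38e-20), and the change did not differ detectably between the B16 lines and MelanA (difference -0.04 ± 0.06, adjusted p = 0.701) or between B16F10 and B16F0 (-0.11 ± 0.07, adjusted p = 0.261). Mrpl18 shares 10.1% of its exonic bases with Tcp1 on the opposite strand, whose log2 fold changes were 0.05, -0.18 and -0.10 in the 3 lines.

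Among the other large-subunit members that fell in all 3 lines, Mrpl51 and Mrpl49 are specific to mitochondria. Mrpl51 was at 92.5 and 92.9 CPM in MelanA controls and at 71.5 and 67.7 CPM with SX-682, at 136 and 131 against 95.3 and 93.0 CPM in B16F0, and at 193 and 197 against 129 and 141 CPM in B16F10. The groups did not overlap, and it fell by 0.41, 0.50 and 0.53 on the log2 scale (each SE 0.03 to 0.04, adjusted p of 6.32e-11, 6.59e-13 and 7.08e-14). Mrpl49 was at 41.7 and 43.1 against 30.7 and 29.3 CPM in MelanA, at 35.1 and 33.7 against 25.3 and 27.7 CPM in B16F0, and at 36.5 and 36.8 against 23.1 and 21.3 CPM in B16F10. Its fall was larger in B16F10 than in B16F0 (-0.72 ± 0.06 against -0.38 ± 0.05, difference -0.34 ± 0.08, adjusted p = 0.00103). Mrpl34, of bacterial type, was at 20.2 and 20.9 against 16.6 and 16.4 CPM in MelanA, 44.7 and 43.6 against 31.3 and 31.9 CPM in B16F0, and 37.6 and 37.3 against 26.8 and 24.8 CPM in B16F10. It fell without overlap in each line, with log2 fold changes of -0.32, -0.48 and -0.54.

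In the small subunit Mrps21, Mrps11 and Mrps12, all of bacterial type, were the members that fell most in the B16 lines. In MelanA Mrps25 (-0.52) and Mrps26 (-0.32), both specific to mitochondria, fell more than Mrps12. Mrps21 was at 31.7 and 30.4 CPM in MelanA controls and at 21.1 and 18.7 CPM with SX-682, at 53.7 and 51.2 against 37.9 and 39.9 CPM in B16F0, and at 56.8 and 58.1 against 40.1 and 41.8 CPM in B16F10. It fell by 0.64, 0.44 and 0.49 on the log2 scale (each SE 0.05, adjusted p of 2.3e-11, 1.63e-08 and 1.16e-09), again with no overlap between the groups. Mrps11 was at 23.6 and 23.0 against 15.1 and 16.9 CPM in MelanA, 21.4 and 19.5 against 11.9 and 13.7 CPM in B16F0, and 28.1 and 28.8 against 17.7 and 19.0 CPM in B16F10. It fell by 0.55, 0.69 and 0.63 on the log2 scale (SE 0.07, 0.08 and 0.07, adjusted p of 9.24e-08, 5.42e-09 and 6.18e-09). Mrps11 shares its start region with Mrpl46, another member, read from the opposite strand, and 173 exonic bases belong to both. Mrpl46 had log2 fold changes of 0.03, -0.17 and -0.04.

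Mrps12, the counterpart of bacterial S12 at the decoding centre, fell in all 3 lines but by different amounts. It was at 33.2 and 34.8 CPM in MelanA controls and at 27.0 and 29.3 CPM with SX-682. In B16F0 it was at 26.8 and 24.7 CPM in the controls and at 15.7 and 15.8 CPM with SX-682, and in B16F10 at 48.9 and 49.0 against 26.4 and 26.9 CPM. The groups were separate in every line. The log2 fold changes were -0.27 ± 0.05 in MelanA (adjusted p = 5.89e-05), -0.71 ± 0.06 in B16F0 (2.81e-11) and -0.88 ± 0.05 in B16F10 (1.65e-14). The fall was larger in the B16 lines than in MelanA by 0.52 ± 0.07 on the log2 scale (adjusted p = 2.09e-07), the largest such difference among the members in the downward direction.

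Of the members that rose in all 3 lines, Mrpl24 and Mrps30 rose the most and did so in B16F10. Mrpl24, the counterpart of bacterial L24, was at 51.6 and 48.7 CPM in MelanA controls and at 59.1 and 60.8 CPM with SX-682, at 57.9 and 55.4 against 77.2 and 77.7 CPM in B16F0, and at 32.6 and 34.0 against 54.4 and 61.3 CPM in B16F10. The groups did not overlap, and the log2 fold changes were 0.26 ± 0.05 (adjusted p = 1.86e-05), 0.45 ± 0.05 (1.35e-09) and 0.80 ± 0.05 (2.25e-14). The rise was larger in the B16 lines than in MelanA (0.36 ± 0.06, adjusted p = 5.2e-06) and larger in B16F10 than in B16F0 (0.35 ± 0.07, adjusted p = 0.000168). Mrps30 was at 23.7 and 25.8 against 33.1 and 33.7 CPM in MelanA, 31.5 and 30.9 against 39.2 and 35.4 CPM in B16F0, and 15.2 and 16.4 against 25.0 and 25.3 CPM in B16F10. It rose by 0.43 ± 0.06, 0.26 ± 0.06 and 0.67 ± 0.06 on the log2 scale (adjusted p of 1.33e-07, 0.000269 and 2.53e-10), without overlap in any line. Both genes had their lowest levels in untreated B16F10, and these control libraries enter the comparison of untreated lines as well as the response to SX-682.

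The other members named among those that rose in all 3 lines changed more evenly. Mrpl38, a protein specific to mitochondria, was at 91.7 and 89.4 against 118 and 113 CPM in MelanA, 68.8 and 64.0 against 83.8 and 86.3 CPM in B16F0, and 61.1 and 63.1 against 82.3 and 85.8 CPM in B16F10, and rose by 0.35, 0.35 and 0.44 on the log2 scale. Mrpl32, whose precursor is cut by an inner-membrane protease before it joins the ribosome, was at 28.9 and 30.3 against 35.2 and 36.8 CPM in MelanA, 25.8 and 26.6 against 31.9 and 35.4 CPM in B16F0, and 23.1 and 22.9 against 29.8 and 34.3 CPM in B16F10. It rose by 0.28, 0.36 and 0.48 with SE of 0.06 in each line. Mrpl23, at the exit of the peptide tunnel, rose by 0.27, 0.29 and 0.28, from 24.0 and 23.2 to 28.3 and 28.7 CPM in MelanA, from 23.1 and 23.5 to 28.0 and 29.0 CPM in B16F0 and from 26.7 and 25.5 to 29.9 and 33.6 CPM in B16F10. The groups were separate in each of these cases.

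**Figure D3:**
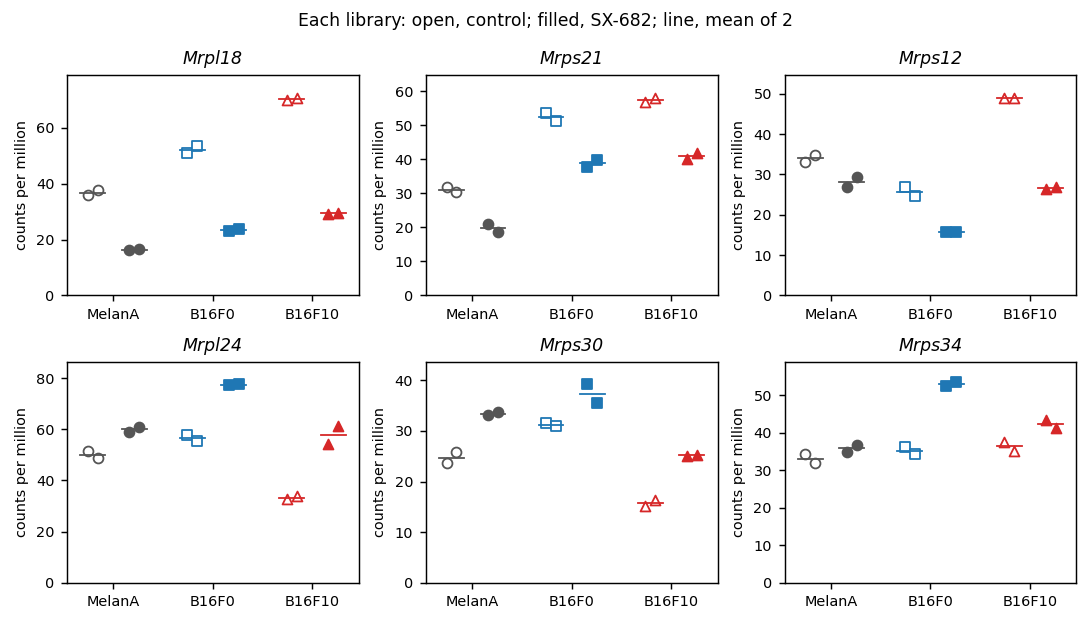
CPM (y axis) of 6 members in each of the 12 libraries, with open symbols for untreated and filled symbols for SX-682 libraries of each line and a line at the mean of 2 libraries. Mrpl18, Mrps21 and Mrps12 are lower with SX-682 in every line and Mrpl24 and Mrps30 are higher, whereas the rise of Mrps34 is clear in B16F0 (36.1 and 34.4 against 52.4 and 53.4 CPM) and not past the test in MelanA.

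Mrps18a, Mrps18b and Mrps18c are paralogs, of which mammals place one in the large subunit and the others at different sites of the small subunit. Mrps18a was at 37.0 and 36.9 against 48.9 and 47.8 CPM in MelanA, 39.6 and 40.4 against 48.1 and 47.7 CPM in B16F0, and 34.7 and 34.7 against 40.9 and 40.6 CPM in B16F10. It rose by 0.39, 0.26 and 0.23 on the log2 scale (each SE 0.04). Mrps18b was at 12.2 and 13.6 against 18.1 and 17.5 CPM in MelanA, 17.8 and 17.6 against 20.9 and 22.9 CPM in B16F0, and 18.3 and 19.5 against 23.1 and 23.8 CPM in B16F10, and its rises of 0.47, 0.30 and 0.31 had SE of 0.07. Mrps18c, the copy closest to the bacterial protein, was at 16.1 and 14.5 against 13.6 and 12.4 CPM in MelanA, 16.9 and 13.3 against 12.5 and 13.1 CPM in B16F0, and 20.9 and 19.3 against 19.6 and 17.5 CPM in B16F10. It fell in MelanA (-0.23 ± 0.09, adjusted p = 0.0289) and B16F0 (-0.25 ± 0.09, adjusted p = 0.0272), and its log2 fold change in B16F10 was -0.11 ± 0.09 (adjusted p = 0.303), with libraries that overlap. The paralogs thus did not share a direction. Mrps36, the component of alpha-ketoglutarate dehydrogenase, fell in all 3 lines with log2 fold changes of -0.27, -0.25 and -0.22 (each SE 0.06), from 21.6 and 23.7 to 18.6 and 18.8 CPM in MelanA, from 30.6 and 34.6 to 26.7 and 28.0 CPM in B16F0 and from 33.3 and 32.5 to 27.1 and 29.2 CPM in B16F10.

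Whether the lines responded alike was tested by the difference of their changes. The response differed among the 3 lines for 38 members (49.4%, against 47.4% of all tested genes), a share close to that of all genes. Of the 12326 genes with at least 10 counts in every library, 8285 differed, a larger share than of the members. Between the B16 lines and MelanA the change was higher in B16 for 15 members and lower for 14 (18.7% and 17.1% of all genes). Between B16F10 and B16F0 it was higher in B16F10 for 12 and lower for 8 (15.3% and 14.9% of all genes). With library totals in place of TMM these counts were 14 and 20 for B16 against MelanA and 16 and 6 for B16F10 against B16F0. Of all 18338 tested genes, 3166 were then higher and 3382 lower for B16 against MelanA, and 3238 and 2391 for B16F10 against B16F0. DESeq2 gave 15 and 20 members for B16 against MelanA, and 3403 and 3254 of the 17116 genes it tested. The members' counts with TMM fell when single libraries were left out. Such a fit leaves a group with a lone library. In the fits named next fewer of all tested genes were called too, so the loss of calls was not confined to the members. For B16 against MelanA the count of higher changes fell to 7 without the MelanA SX-682 library 2, and the count of lower changes to 9 without the MelanA control library 1. For B16F10 against B16F0 the count of lower changes fell to 5 without the B16F0 control library 2, the B16F0 SX-682 library 2 or the B16F10 SX-682 library 1.

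Mrps34, of the small subunit and specific to mitochondria, showed the clearest response in B16F0. It was at 34.3 and 31.9 CPM in MelanA controls and at 34.9 and 36.6 CPM with SX-682, at 36.1 and 34.4 against 52.4 and 53.4 CPM in B16F0, and at 37.6 and 35.2 against 43.3 and 41.3 CPM in B16F10. The controls of all lines lay between 31.9 and 37.6 CPM, and the B16F0 libraries with SX-682 were the highest of all 12. Its change was 0.11 ± 0.05 on the log2 scale in MelanA (adjusted p = 0.0601), 0.59 ± 0.05 in B16F0 (2.83e-11) and 0.22 ± 0.05 in B16F10 (0.000517), and the change was lower in B16F10 than in B16F0 by a difference of -0.37 ± 0.07 (adjusted p = 0.000155). Mrps34 shares 63.4% of its exonic bases with Mapk8ip3 on the opposite strand, whose log2 fold changes were 0.47, 0.78 and 0.68. The strand setting of the counting was not given in the sources used here, so reads from the 2 genes cannot be told apart. Of its exonic bases 37.0% are shared with Nme3 on the same strand, which no strand setting separates. Mapk8ip3 shares 1309 and Nme3 763 of the 2064 exonic bases of Mrps34, so few of them may be free of overlap.

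Mrpl2 and Mrpl1 rose in MelanA and B16F10 but were not called in B16F0. Mrpl2 was at 59.9 and 61.4 against 75.2 and 69.4 CPM in MelanA, 74.9 and 76.2 against 75.5 and 76.7 CPM in B16F0, and 53.7 and 55.7 against 79.6 and 75.9 CPM in B16F10. Its log2 fold changes were 0.25 ± 0.04, 0.01 ± 0.04 and 0.51 ± 0.04, and the difference between the B16 lines was 0.50 ± 0.06 (adjusted p = 4.5e-08). Mrpl1, of the mobile L1 stalk, was at 21.2 and 21.5 against 25.3 and 25.3 CPM in MelanA, 19.8 and 19.8 against 18.8 and 19.5 CPM in B16F0, and 20.4 and 22.4 against 27.7 and 28.4 CPM in B16F10. Its log2 fold changes were 0.25, -0.05 and 0.39, with a difference of 0.44 ± 0.08 between B16F10 and B16F0 (adjusted p = 0.00016). Mrpl57 rose in B16F0 (0.28) and B16F10 (0.35) and was at 0.00 in MelanA, a difference of 0.32 ± 0.06 (adjusted p = 8.26e-05). Mrpl43 rose in MelanA (0.28) and was at -0.15 and 0.06 in B16F0 and B16F10, neither called, with a difference of -0.33 ± 0.08 (adjusted p = 0.00164). Mrpl43 shares 33.4% of its exonic bases with Twnk on the opposite strand, whose log2 fold changes were 0.32, -0.45 and -0.25. With the strand setting unknown, reads of these genes cannot be told apart there.

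Larger falls in B16F10 were found for Mrpl50 and Mrpl36. Mrpl50 was at 37.7 and 37.0 against 32.7 and 32.8 CPM in MelanA, 38.1 and 35.3 against 28.1 and 27.1 CPM in B16F0, and 51.4 and 51.1 against 31.4 and 29.5 CPM in B16F10. It fell in each line, with log2 fold changes of -0.19, -0.41 and -0.75 (each SE 0.05), and the difference between B16F10 and B16F0 was -0.34 ± 0.07 (adjusted p = 0.000385). Mrpl36, the counterpart of the small bacterial L36, was at 29.2 and 29.0 against 24.9 and 24.8 CPM in MelanA, 48.8 and 48.7 against 43.2 and 43.3 CPM in B16F0, and 40.1 and 38.7 against 26.7 and 26.7 CPM in B16F10. It fell in each line without overlap, by 0.56 on the log2 scale in B16F10 and by 0.23 and 0.17 in MelanA and B16F0. Mrpl12 was at 107 and 114 against 104 and 104 CPM in MelanA, 148 and 148 against 127 and 140 CPM in B16F0, and 132 and 123 against 102 and 103 CPM in B16F10. Its log2 fold changes were -0.09 (adjusted p = 0.0585), -0.15 (0.00124) and -0.31 (5.37e-08).

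The 3 members called in opposite directions all fell in MelanA and rose in B16F10, each by less than 0.2 on the log2 scale. Mrpl58, a peptidyl-tRNA hydrolase that was built into the large subunit, was at 39.0 and 38.0 against 35.0 and 34.5 CPM in MelanA and at 46.4 and 48.0 against 52.4 and 54.8 CPM in B16F10. Mrpl13 was at 116 and 115 against 106 and 108 CPM in MelanA and at 154 and 151 against 170 and 175 CPM in B16F10. Mrpl54 was at 37.5 and 38.4 against 34.4 and 33.5 CPM in MelanA and at 29.4 and 28.9 against 32.5 and 33.8 CPM in B16F10. None of these groups overlapped. Mrpl13 also fell in B16F0 (-0.09 ± 0.03, adjusted p = 0.0217), where Mrpl58 and Mrpl54 were not called (0.06 and 0.01).

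The untreated lines were compared to ask whether the melanoma lines differ from MelanA at rest. The members were mostly higher in the B16 lines: 50 were higher and 14 lower (64.9% and 18.2%), against 33.7% and 42.4% of all tested genes, of which 76.1% were called in either direction. Of the 12326 genes with at least 10 counts in every library, 4947 were higher and 5237 lower. The members' median log2 difference was 0.22 and that of all genes -0.09. Scaling moved these counts. With library totals alone the median of all genes was -0.22, the members' median 0.08 and 37 members were higher and 23 lower. Of all 18338 tested genes, 5127 were higher and 8940 lower under library totals. Scaling shifts every gene alike, so the gap of 0.30 between the members' median and that of all genes is the same under each scaling by construction. With DESeq2 43 members were higher and 15 lower, against 5892 and 8038 of the 22469 genes it tested. In the small subunit 19 of 26 were higher and 2 lower, including 9 of 10 of its proteins specific to mitochondria and none lower. In the large subunit 30 of 50 were higher and 12 lower, 17 and 7 of the 30 of bacterial type and 13 and 5 of the 20 specific to mitochondria. Whether the subunits differ in this was not tested.

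**Figure D4:**
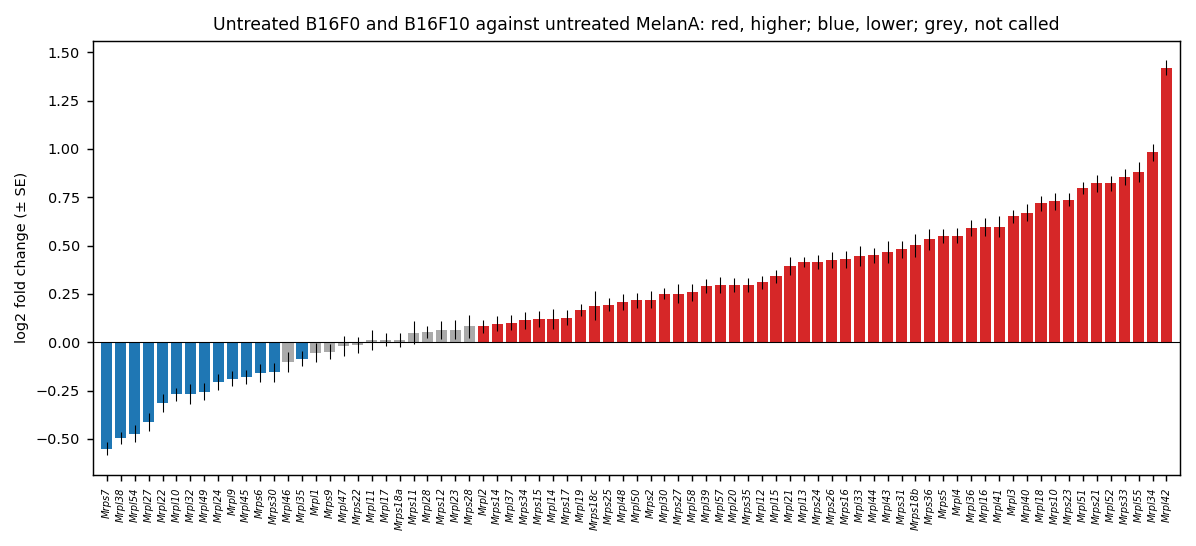
Log2 difference (y axis, bars ± SE) of the mean of untreated B16F0 and B16F10 against untreated MelanA for each of the 77 members, ordered by size and coloured by call. Of the members 50 were higher, 14 lower and 13 not called, with Mrpl42 highest at 1.42 and Mrps7 lowest at -0.55.

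Mrpl42 had the largest difference. It was at 31.6 and 32.6 CPM in MelanA controls, 93.7 and 92.9 CPM in B16F0 controls and 79.5 and 78.7 CPM in B16F10 controls, a 2.68-fold higher level in B16 (log2 1.42 ± 0.04, adjusted p = 1.75e-24). Mrpl34 followed with 20.2 and 20.9 CPM in MelanA, 44.7 and 43.6 CPM in B16F0 and 37.6 and 37.3 CPM in B16F10 (0.98 ± 0.05, adjusted p = 3.44e-18). Mrpl55 was at a mean of 15.7 ± 0.47 CPM in MelanA, 31.4 ± 0.79 CPM in B16F0 and 26.5 ± 0.66 CPM in B16F10 (SD, 2 libraries each), with a log2 difference of 0.88 (adjusted p = 2.37e-15). In all of these no B16 library was as low as a MelanA library, and the same held for Mrps33, at 23.6 and 23.2 CPM in MelanA, 39.6 and 38.6 CPM in B16F0 and 45.4 and 45.9 CPM in B16F10 (0.85, adjusted p = 4.9e-18). On the lower side Mrps7, the counterpart of bacterial S7, was at 78.9 and 80.4 CPM in MelanA, 48.1 and 49.3 CPM in B16F0 and 62.8 and 58.7 CPM in B16F10 (-0.55, adjusted p = 1.23e-15). Mrpl38 (-0.50, adjusted p = 1.17e-14), Mrpl54 (-0.47, adjusted p = 2.1e-11) and Mrpl27 (-0.41, adjusted p = 2.11e-09) were also lower in B16.

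Between the untreated melanoma lines 33 members were higher and 26 lower in B16F10 than in B16F0 (42.9% and 33.8%), against 30.8% and 31.2% of all genes and 62% in either direction, with a median of 0.04 for the members. Of the 12326 genes with at least 10 counts in every library, 4703 were higher and 4628 lower. With library totals alone 25 members were higher and 34 lower, against 4767 and 6682 of all 18338 tested genes. Upper-quartile scaling gave 30 and 30 members, against 5114 and 6250 of all tested genes. The balance of the directions thus depends on the scaling. Mrps12 was at 26.8 and 24.7 CPM in B16F0 and at 48.9 and 49.0 CPM in B16F10, the largest rise (0.93 ± 0.05, adjusted p = 1.74e-15). Mrps2 was at 31.3 and 28.9 CPM in B16F0 and at 46.2 and 47.9 CPM in B16F10 (0.64, adjusted p = 3.63e-12), and Mrpl44 and Mrpl51 were each higher by 0.54. Mrps30 was at 31.5 and 30.9 CPM in B16F0 and at 15.2 and 16.4 CPM in B16F10, 0.507 of the level (-0.98 ± 0.06, adjusted p = 1.44e-14). Mrpl24 (-0.77), Mrps10 (-0.49) and Mrpl2 (-0.47) were lower in B16F10 as well. Mrps12, Mrps30, Mrpl24 and Mrpl2 are also among the members with the largest changes with SX-682 in B16F10, and both comparisons use the same B16F10 control libraries.

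Many members lie close to other genes, which bears on how their reads were assigned. Chromosome 11 held 11 members and chromosome 17 held 8. For 27 members some exonic bases are shared with a gene on the opposite strand. Of the 50 members without such overlap 9 rose and 11 fell in all 3 lines, and of the 27 with it 3 rose and 7 fell. Of the 45 members that share no exonic bases with any gene, on either strand, 9 rose and 10 fell. The largest shared part was in Mrps25, of the small subunit, with 69.8% of its exonic bases in Nr2c2. Mrps25 had log2 fold changes of -0.52, -0.28 and -0.43, and Nr2c2 of 0.18, -0.15 and 0.17. Mrpl24 shares 26.3% of its exonic bases with Rrnad1, whose log2 fold changes were 0.37, -0.15 and 0.01, and Mrpl43 shares 33.4% with Twnk, the mitochondrial DNA helicase, at 0.32, -0.45 and -0.25. The 5 processed pseudogenes with Mrpl or Mrps names had at most 47 counts in a library.

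Divergent neighbours, genes read from the opposite strand with a start at most 1000 bases upstream or 500 bases inside, were found for 26 of the 77 members (33.8%) and for 13.5% of 13950 protein-coding genes tested. Mrps11 and Mrpl46 are each other's neighbour, which leaves 25 distinct pairs. Both genes of a pair were called with SX-682 in 11 pairs in MelanA, of which 6 moved the same way, in 15 pairs in B16F0, of which 8 did, and in 14 pairs in B16F10, of which 6 did. The start of Mrps18b is 45 bases from that of Ppp1r10, which encodes a regulatory subunit of protein phosphatase 1. Mrps18b rose by 0.47, 0.30 and 0.31 on the log2 scale while Ppp1r10 fell by 1.68, 1.65 and 1.68. Mrpl49 fell in all 3 lines, and its neighbour Fau, which encodes a protein of the cytosolic ribosome, had log2 fold changes of 0.30, 0.14 and 0.39. Mrpl32 rose, and its neighbour Psma2, a proteasome subunit, had -0.24, -0.19 and -0.16. Mrps12 and Sars2, which encodes the mitochondrial seryl-tRNA synthetase, have starts 172 bases apart, and Sars2 had log2 fold changes of -0.23, 0.05 and -0.11.

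Other genes of the pathway were described from lists of known members. The 5 proteins of the mitochondrial ribosome with other names rose in 3 and fell in 0 cases in MelanA, where 23.4% and 24.7% of all genes did. In B16F0 2 rose and 1 fell (25.1% and 25% of all genes), and in B16F10 3 and 1 (25.5% and 25.3%). Dap3, of the small subunit, had log2 fold changes of 0.20, 0.05 and 0.24, and Ptcd3, a small-subunit protein with pentatricopeptide repeats, of -0.08, -0.32 and -0.28. Chchd1 had 0.13, 0.23 and 0.10, Aurkaip1 0.20, 0.07 and 0.30, and Gadd45gip1 0.08, 0.20 and 0.19. Of the 27 factors that assemble the ribosome, 16 rose and 0 fell in MelanA, where 23.4% and 24.7% of all genes did, 10 and 2 in B16F0 (25.1% and 25% of all genes), and 15 and 7 in B16F10 (25.5% and 25.3%). In all 3 lines 8 rose (29.6%, against 11.3% of all genes) and none fell (against 11.7%), and no test of the list was made. Mettl15, an rRNA methyltransferase, rose by 0.57, 0.66 and 0.61, Ngrn, needed for the large-subunit rRNA, by 0.85, 0.50 and 0.80, and Mtg1, a GTPase of large-subunit assembly, by 0.59, 0.47 and 0.68.

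Of the 13 translation factors, 4 rose and 3 fell in MelanA, where 23.4% and 24.7% of all genes did. In B16F0 3 rose and 6 fell (25.1% and 25% of all genes), and in B16F10 5 and 5 (25.5% and 25.3%). In untreated B16 10 were higher and 2 lower than in MelanA (33.7% and 42.4% of all genes). The ribosome recycling factor Mrrf rose by 0.63, 0.38 and 0.62 and the insertase Oxa1l by 0.31, 0.33 and 0.17. The elongation factors Gfm1 (-0.34, -0.25 and -0.35) and Tsfm (-0.15, -0.19 and -0.20) and the formyltransferase Mtfmt (-0.20, -0.72 and -0.30) fell in all 3 lines. Of the 8 genes for mitochondrial transcription and messenger handling, 2 rose and 3 fell in MelanA (23.4% and 24.7% of all genes). In B16F0 0 rose and 4 fell (25.1% and 25% of all genes), and in B16F10 1 rose and 7 fell (25.5% and 25.3%). No test of this list was made. Tfb2m, needed to start transcription, was the only one of the 8 to fall in all 3 lines. It was at 25.4 and 24.0 against 21.7 and 20.8 CPM in MelanA, 17.2 and 18.0 against 7.35 and 7.75 CPM in B16F0, and 31.8 and 33.1 against 15.4 and 17.1 CPM in B16F10. No library with SX-682 reached a control of its line, and the log2 fold change was -0.22 ± 0.06 in MelanA and -1.23 ± 0.08 in B16F0.

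Of the factors whose motifs were searched in the promoters, Yy1 fell in all 3 lines, while Nrf1 and the GABP subunits were called in some lines only. Nrf1 fell in MelanA (-0.39 ± 0.05, adjusted p = 2.66e-08) and had 0.07 and 0.11 in B16F0 and B16F10, neither called. Gabpa, the DNA-binding subunit of GABP, had -0.09, -0.15 and -0.13, and Gabpb1 -0.13, -0.03 and 0.18. Yy1 fell by 0.20, 0.44 and 0.21 on the log2 scale. Of the coactivators, Pprc1 fell in all 3 lines (-0.15, -0.47 and -0.68), Ppargc1a rose in MelanA (0.91) and B16F10 (0.30) and fell in B16F0 (-0.85), and Ppargc1b had 0.63, -0.24 and -0.13. The nuclear receptor Esrra had 0.14, 0.02 and -0.38 and Myc 0.59, -0.11 and -0.48. A link between these levels and the members was not tested.

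The ribosomal RNAs rose with SX-682 in both B16 lines. The small-subunit rRNA mt-Rnr1 was at 429 and 438 CPM in MelanA controls and at 453 and 460 CPM with SX-682, at 88.6 and 94.3 against 282 and 297 CPM in B16F0, and at 82.3 and 81.3 against 599.5 and 609.7 CPM in B16F10. The log2 fold changes were 0.07 ± 0.03, 1.66 ± 0.03 and 2.89 ± 0.03, and both B16 lines were below MelanA when untreated. The large-subunit rRNA mt-Rnr2 had -0.09, 0.35 and 1.11. The step that selected RNA for sequencing was not given in the sources used here, and rRNA counts depend on it. Of the 13 messengers of mitochondrial DNA, 4 rose and 3 fell in MelanA, where 23.4% and 24.7% of all genes did. In B16F0 1 rose and 10 fell (25.1% and 25% of all genes), with a median of -0.90. In B16F10 5 rose and 4 fell (25.5% and 25.3% of all genes). Their summed level was nevertheless higher with SX-682 in each line. It went from 7944 and 8034 to 9668 and 9656 CPM in MelanA and from 7243 and 7443 to 7964 and 8148 CPM in B16F0. In B16F10 it went from 10487 and 10183 to 11802.5 and 11878 CPM. The messenger of cytochrome c oxidase subunit I, mt-Co1, rose in all 3 lines (0.56, 0.89 and 0.66), while mt-Cytb (-0.31, -1.08 and -0.36), mt-Nd5 (-0.17, -0.65 and -0.38) and mt-Nd6 (-0.22, -0.55 and -0.33) fell.

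**Figure D5:**
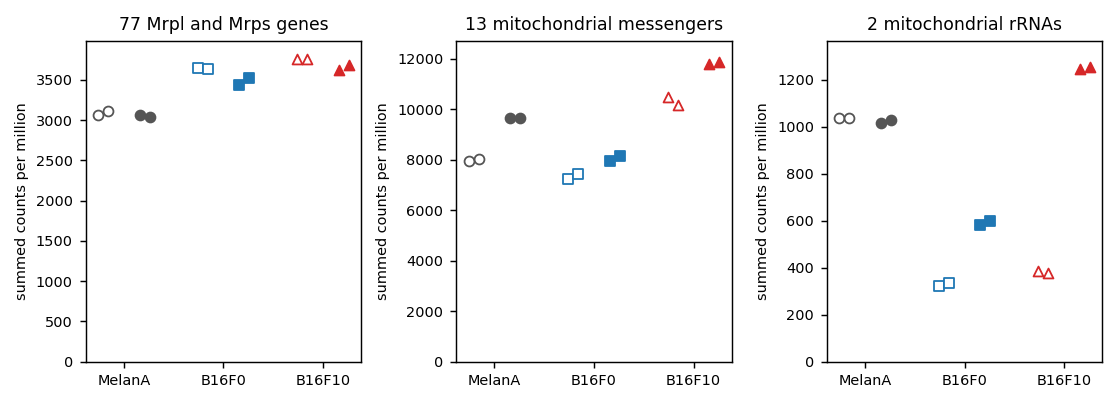
Summed CPM (y axis) of the 77 members, of the 13 messengers of mitochondrial DNA and of the 2 mitochondrial rRNAs in each library, with open symbols for untreated and filled symbols for SX-682 libraries. The members stay between 3045 and 3760 CPM, whereas the rRNAs are at 386 and 376 CPM in untreated B16F10 and at 1244 and 1254 CPM with SX-682.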

How the data were processed

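RNA was extracted from the cultures with a column kit and sequenced by standard Illumina protocols, and the authors deposited raw counts of reads per gene, without normalization, for 34513 genes. The submitters' processing notes name mm10, cutadapt, STAR and DESeq2. Versions, the counting program, its annotation and strand setting are not given in the sources used here. Genes were filtered by expression (filterByExpr, leaving 18338), scaled by TMM and tested with quasi-likelihood F-tests in edgeR 4.0.16 (R 4.3.3), where 1 model held the 12 libraries and no replicate block. The prior count was 0.125, and p-values were adjusted by Benjamini-Hochberg over all tested genes with a threshold of 0.05. The common biological coefficient of variation was 2.78%, with 6 residual and 21.9 prior degrees of freedom. An exact permutation test of 2 against 2 libraries cannot go below p = 0.333, so no such test is given. DESeq2 1.42.0 was an alternative. The scripts were tested on simulated data. Contrasts of responses compare the mean change of both B16 lines, or of B16F10 against B16F0. Each SE is the log2 fold change divided by the root of its F value. Figures used Python 3.11.15 and matplotlib 3.10.9.

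The members and lists were chosen with earlier results of these data known. Named members were the 3 largest rises and falls per SX-682 comparison among called members whose libraries did not overlap, the 5 per direction called alike in all 3 lines with the largest smallest change, those called in opposite directions (at most 5), the 4 highest and lowest per comparison of untreated lines, the 3 highest and lowest per difference in response, the 3 highest and lowest levels per kilobase and, by role, the Mrps18 paralogs, Mrpl12, Mrps12 and Mrps36. For other lists up to 3 genes per direction called alike in all 3 lines were named by the same measure, with all regulators and all ribosome proteins of other names. Genes named as overlapping or divergent neighbours, and also Mrps25, Mrps26, Cd68 and Lyz2, were chosen after their values were seen. Identifiers and coordinates of all 77 members matched GENCODE M21, from which exonic overlaps and neighbours were taken. Exonic lengths were the gene lengths deposited with the counts. Promoter windows came from RefSeq on GRCm38.p6. Mrpl53 is not analysed here. Replicates of a group differed by more than sampling noise (2.87 to 5.25 chi-square per gene).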

Additional observations from a re-analysis of the deposited data

Results flagged for a closer look

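Of the 37 members named, 20 had a change with SX-682 that differed among the 3 lines by the test of the difference (edgeR quasi-likelihood, adjusted p between 8.46e-08 and 0.0477), which is a test across all lines and not of a given pair. The named members were partly chosen as those with the largest differences in response, so this count is not a measure of the group. Over all members 49.4% differed among lines, and over all tested genes 47.4%. The range of the 3 lines' log2 fold changes was 0.60 for Mrps12, 0.56 for Mrpl50, 0.54 for Mrpl24, 0.50 for Mrpl2, 0.47 for Mrps34, 0.44 for Mrpl1 and 0.43 for Mrpl43. It was 0.41 for Mrps30, 0.39 for Mrpl36, 0.36 for Mrpl57, 0.35 for Mrpl54, 0.34 for Mrpl49 and 0.33 for Mrpl58. It was 0.28 for Mrpl13 and Mrpl55, 0.27 for Mrpl44, 0.26 for Mrps7, 0.24 for Mrpl48 and 0.22 for Mrpl12 and Mrpl34. The largest of these ranges belong to Mrps12 and Mrpl50, which fell in every line, and to Mrpl24, which rose in every line, so that for these genes the size and not the direction of the change differed.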

How the results depend on the processing

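With 0.25 as a lower limit on the size of the log2 fold change, the counts of members were 13 raised and 14 lowered in MelanA, 20 lowered in B16F0, 13 raised and 16 lowered in B16F10, 8 lower in B16 than in MelanA, 19 higher and 10 lower in B16F10 than in B16F0, 5 higher and 5 lower in the response of B16 minus MelanA and 4 lower in that of B16F10 minus B16F0. At an adjusted p under 0.01 they were 7 higher and 7 lower for B16 minus MelanA, 5 lower for B16F10 minus B16F0 and 25 that differed among lines. The shares of all tested genes at these stricter limits are not given here, so these counts do not set the members apart from other genes. Under library totals 23 members were lower in untreated B16 than in MelanA, and Mrps18a (-0.13), Mrps34 (-0.026) and Mrpl2 (-0.056) reversed there, since that scaling lowers every gene's value in this comparison. When each library was left out in turn, with the lone library of its group assumed to vary like the others, the response of B16 minus MelanA had 7 to 13 higher and 9 to 16 lower members and that of B16F10 minus B16F0 5 to 9 lower, while 11 to 14 members rose and 14 to 20 fell in all 3 lines. Apart from these, 314 of the count and median values under an alternative kept their direction and side of the threshold. Replicate numbers did not pair the libraries (correlations of same-numbered deviations -0.0276, -0.0112 and -0.00892), and with a replicate block 12 members rose and 18 fell in all 3 lines (12 and 17 the same), 47 were higher and 12 lower in untreated B16 than in MelanA, and 39 differed among lines. DESeq2 gave 14 and 17 in all 3 lines (12 and 16 the same). With 2 libraries per group, small changes and differences between lines are the least certain, and unknown strand handling limits the overlapping genes.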

Other observations

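Among the 27 assembly factors, 2 chosen after their values were seen were near 0 in MelanA libraries. Rbfa, which binds the small-subunit rRNA, was at 0 to 0.0266 CPM in the 4 MelanA libraries, under the floor of 3 counts, and at 14.7 to 19.1 CPM in the 8 B16 libraries. Gtpbp10, a GTPase of large-subunit assembly, was at 0.0842 to 0.264 CPM in MelanA and at 23.2 to 38.5 CPM in B16. All 77 members had at least 630 counts in every library.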
